A study of Mus musculus with 4 samples.

Results

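T-box genes encode transcription factors that share a DNA-binding domain, the T-box, first described in the Brachyury protein. The 10 genes described here, *Tbx1*, *Tbx2*, *Tbx3*, *Tbx4*, *Tbx5*, *Tbx6*, *Tbx15*, *Tbx18*, *Tbx20* and *Eomes*, were taken by name, as family members known from limb, heart and mesenchyme development. Of these, 9 matched a row by gene name among the 23537 genes of the RNA count data, and the RNA level of *Tbx4* was not analysed here. RNA was sequenced from primary fibroblasts (MEFs), cultured mesenchymal cells isolated from C57BL/6 mouse embryos at day 12.5 after mating, in 2 libraries from Mbd4-/- cells (KO) and 2 from Mbd4+/+ cells (WT). MBD4 is a DNA glycosylase that binds methylated CpG and removes thymine or uracil mispaired with guanine. The comparison addresses which genes differ in RNA level between KO and WT cells. KO cells also had almost no reads of the neighbouring gene *Ift122*, as given below. The methods describe the 2 samples of a genotype as independent but give no number of embryos or cultures, so each p-value reflects the spread of these libraries alone, part of which may be technical.

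T-box factors work as patterning genes: small sets of them are switched on in overlapping territories of the embryo, where some activate and others repress their targets. *Tbx5* and *Tbx4* are known for the forelimb and hindlimb, *Tbx15* and *Tbx18* for mesenchyme of the limb, skin and skeleton, *Tbx20*, *Tbx5*, *Tbx2*, *Tbx3* and *Tbx18* for different parts of the heart, *Tbx1* for the pharyngeal apparatus, *Tbx6* for the mesoderm that forms somites, and *Eomes* for the trophoblast, the early mesoderm and endoderm, and cytotoxic lymphocytes. MEFs are a mixed culture of such mesenchyme, which is the setting in which these genes were read here.

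The study as a whole concerns CpG methylation at promoters, so the promoters of the genes that differed between KO and WT and have an entry in the promoter table are shown with every CpG in capitals. They are the RefSeq windows on GRCm38.p6, from 250 bases before to 50 after the annotated start, and 6 of the 10 genes matched an entry in the table used. *Tbx20*, which had the largest rise of the family, has the window chr9:24774254-24774553 on the minus strand. *Tbx1*, which had the largest fall, has chr16:18588850-18589149 on the minus strand, and a second window at chr16:18590622-18590921. *Tbx18*, which rose less, has chr9:87731211-87731510 on the minus strand.
Tbx20: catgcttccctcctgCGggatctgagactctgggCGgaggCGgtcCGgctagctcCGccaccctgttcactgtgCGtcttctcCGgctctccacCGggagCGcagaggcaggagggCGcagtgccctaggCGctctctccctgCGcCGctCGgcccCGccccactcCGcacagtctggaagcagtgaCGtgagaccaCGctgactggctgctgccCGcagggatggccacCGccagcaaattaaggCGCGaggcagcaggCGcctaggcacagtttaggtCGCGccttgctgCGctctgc
Tbx1: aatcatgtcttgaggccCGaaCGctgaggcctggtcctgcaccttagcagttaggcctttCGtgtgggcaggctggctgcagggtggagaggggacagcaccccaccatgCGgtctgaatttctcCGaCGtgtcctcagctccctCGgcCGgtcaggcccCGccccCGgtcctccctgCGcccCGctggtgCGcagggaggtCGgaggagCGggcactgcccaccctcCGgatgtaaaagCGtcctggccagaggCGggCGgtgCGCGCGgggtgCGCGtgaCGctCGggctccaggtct
Tbx18: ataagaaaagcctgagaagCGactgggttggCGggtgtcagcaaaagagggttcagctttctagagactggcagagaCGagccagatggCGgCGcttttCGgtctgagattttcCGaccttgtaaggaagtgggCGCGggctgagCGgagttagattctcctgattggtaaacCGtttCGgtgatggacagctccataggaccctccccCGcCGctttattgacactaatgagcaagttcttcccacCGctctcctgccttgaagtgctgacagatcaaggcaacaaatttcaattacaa
The *Tbx20* and the shown *Tbx1* window each hold 26 CpG, with a GC content of 68.3% and 69.0%, and 16.9% of the 32851 promoter windows of 300 bases hold at least as many. The *Tbx18* window holds 15 CpG at 51.7% GC, the second *Tbx1* window 16, that of *Eomes* 10, that of *Tbx4* 8 and that of *Tbx6* 7, against a median of 7 over all windows, with quartiles of 3 and 20. The *Tbx20* window and the shown *Tbx1* window thus had the same number of CpG, while the second *Tbx1* window had fewer. Which start of *Tbx1* these cells use was not tested. The T-box core motif TCACAC, searched on both strands, was in 0 of the 7 windows of these genes, and it occurs in 14.5% of all windows. The longer motif GGTGTGA, which contains its reverse complement GTGTGA, was also in 0 of the 7, against 3.98% of all. DNA methylation was not part of the data used here.

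Of the 9 genes with a row, 7 passed the filter on low counts and were tested together with 15538 genes in all, and 6 of the 7 differed between KO and WT at an adjusted p under 0.05. *Tbx20*, *Tbx2* and *Tbx18* rose, while *Tbx1*, *Tbx3* and *Tbx15* fell, and *Tbx6* did not pass the test. *Tbx5* and *Eomes* had too few counts to be tested. Read against the background, the count is not a result about the family: 66.8% of all tested genes passed, 34.3% higher and 32.5% lower. The CPM of the genotypes did not overlap for the same 6 of the 7, and for 82.8% of all tested genes. The study uses limits of 0.01 for p and 2 for the absolute log2 fold change of genes, applied here to the adjusted p. At these limits *Tbx20* passed as higher and *Tbx1* as lower. That is 2 of 7 genes, where 8.94% of all genes passed, 5.79% higher and 3.15% lower. The genes were chosen with earlier results of these data known, and *Tbx20* passed the filter on low counts through its KO libraries alone. This count is therefore not a result about the family either. The median log2 fold change was 0.40 over the 7 genes and 0.02 over all. With 3 genes on either side, the former is simply the value of *Tbx6*, which was not called, and shows no shift of the family. When the libraries were scaled by their totals, 62.6% of the calls among all genes were higher, against 51.4% with the TMM scaling used throughout, and the directions of the 6 genes were the same in both. In bulk RNA, fewer cells that express a gene and less RNA per cell cannot be told apart.

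**Figure D1:**
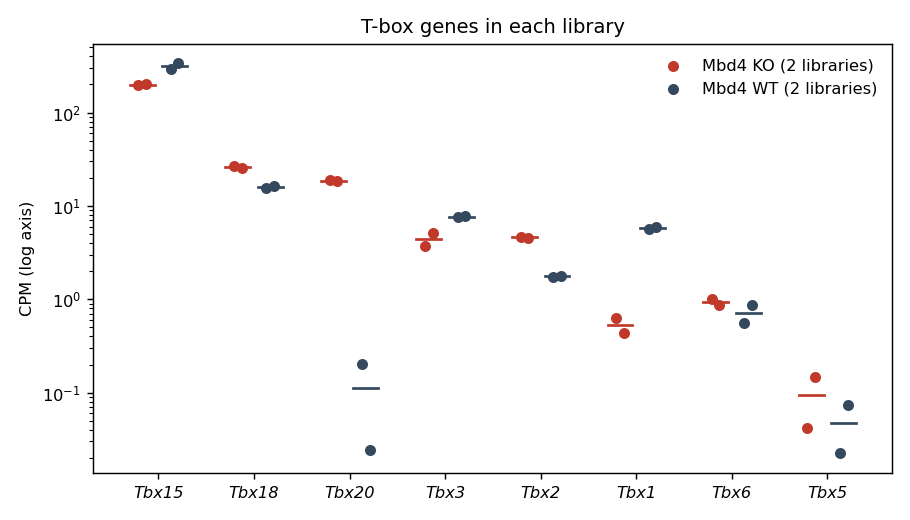
CPM (reads scaled to the depth of their library, log axis) of 8 T-box genes in each library, with KO in red to the left of WT in dark grey; each point is a library and each line the mean of 2. *Eomes* is left out because of libraries at 0. *Tbx20* lies at 18.5 to 18.8 CPM in KO and at or below 0.201 CPM in WT, while *Tbx1* lies the other way round; the points of *Tbx6* and *Tbx5* overlap between genotypes.

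**Figure D2:**
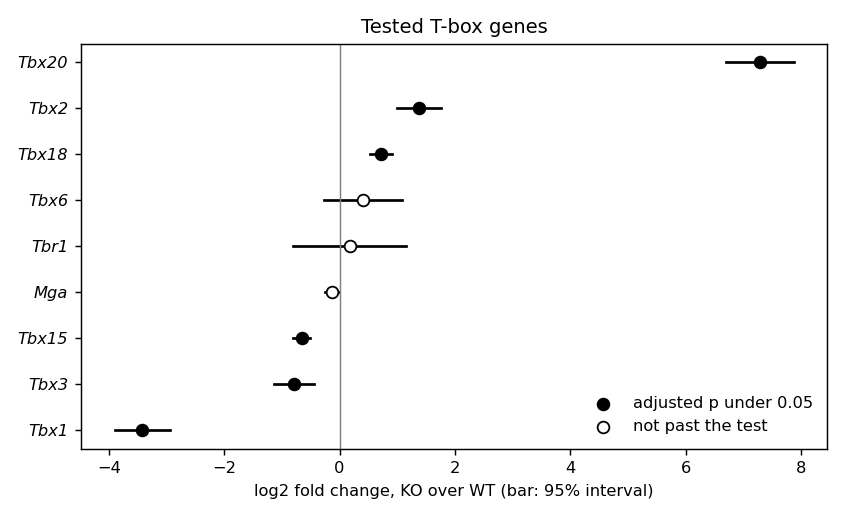
Log2 fold change, KO over WT, of the 7 tested T-box genes with *Mga* and *Tbr1*, with 95% intervals derived from the F statistic of the edgeR test. Filled points have an adjusted p under 0.05. *Tbx20* stands at 7.28 and *Tbx1* at -3.42, and the other called genes lie between -0.79 and 1.38.

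*Tbx20* (ENSMUSG00000031965, minus strand, mm9 chr9:24527648-24578746) encodes a factor of the developing heart that is needed for chamber growth and for heart muscle identity. It had 891 and 761 reads in KO, against 9 and 1 in WT. In CPM, reads scaled to the depth of their library, these are 18.8 and 18.5 in KO and 0.201 and 0.0244 in WT. The KO libraries were thus nearly equal, while WT replicate 1 lay above and WT replicate 2 below the 0.0670 and 0.0732 CPM that 3 reads are worth in them. The log2 fold change was 7.28 (standard error 0.27, 95% interval 6.70 to 7.87, adjusted p = 6.5e-11), and 111 of the 15538 genes, 0.714%, had an absolute log2 fold change of 7 or more. The scaled sum of 1652 reads over 10 gives a ratio of 160, with a 95% exact interval of 86.6 to 334 that covers counting error only. Its size rests on which WT library is used, since the log2 fold change was 9.41 without WT replicate 1 and 6.48 without WT replicate 2. Both values lie outside the 95% interval of 6.70 to 7.87, so that interval understates the uncertainty for this gene.

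*Tbx1* (ENSMUSG00000009097, minus strand, mm9 chr16:18581806-18588113), the gene of the pharyngeal arches whose loss underlies much of DiGeorge syndrome in humans, went the opposite way. It had 30 and 18 reads in KO, against 255 and 243 in WT. The CPM were 0.631 and 0.437 in KO and 5.69 and 5.93 in WT, with means of 0.534 ± 0.138 and 5.81 ± 0.169 (SD, n = 2 each). *Tbx1* was therefore still detected in KO cells, at a level well below either WT library. The log2 fold change was -3.42 (standard error 0.22, 95% interval -3.90 to -2.95, adjusted p = 1.4e-08), a level 10.7-fold lower in KO. Over 12 alternative analyses it stayed between -3.72 and -3.20 and was called in all 12.

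*Tbx2* and *Tbx3* are close relatives that act mainly as repressors, in limb and heart and, when overproduced in tumours, on senescence genes. They moved in opposite directions. *Tbx2* (ENSMUSG00000000093, plus strand, mm9 chr11:85646053-85655450) had 219 and 189 reads in KO, against 78 and 73 in WT. Its CPM were 4.61 and 4.59 in KO and 1.74 and 1.78 in WT, so that replicates were almost the same and the genotypes apart. On the log2 scale *Tbx2* differed by 1.38 (standard error 0.18, 95% interval 1.003 to 1.76, adjusted p = 1.1e-05), a 2.61-fold higher level. *Tbx3* (ENSMUSG00000018604, plus strand, mm9 chr5:120120678-120134733) had 178 and 212 reads in KO, against 340 and 316 in WT. Its CPM were 3.75 and 5.14 in KO and 7.59 and 7.71 in WT, so the KO libraries differed from each other more than those of WT but both were lower. The log2 fold change was -0.79 (standard error 0.16, 95% interval -1.14 to -0.44, adjusted p = 0.00069), and the highest adjusted p over 12 alternatives was 0.0244, without KO replicate 1. *Tbx3* overlaps the gene model *Gm2301* on the other strand, and no source used here states whether the counting took the strand into account.

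*Tbx15* and *Tbx18* also belong together by sequence, and both repress transcription in mesenchyme, *Tbx15* in the skeleton, skin pattern and muscle fibres and *Tbx18* in somites, ureter, epicardium and the sinoatrial node. *Tbx15* (ENSMUSG00000027868, plus strand, mm9 chr3:99044304-99158182) was the most abundant of the 9 genes in both genotypes, with 9422 and 8283 reads in KO, against 13200 and 13757 in WT. Its CPM were 198 and 201 in KO and 295 and 336 in WT, where the replicates lay further apart. The log2 fold change was -0.66 (standard error 0.07, 95% interval -0.81 to -0.51, adjusted p = 1.4e-06), a 1.58-fold lower level. *Tbx18* (ENSMUSG00000032419, minus strand, mm9 chr9:87597635-87626095) had 1277 and 1059 reads in KO, against 692 and 675 in WT. Its CPM were 26.9 and 25.7 in KO and 15.5 and 16.5 in WT, with no overlap. In log2 terms the difference was 0.72 (standard error 0.08, 95% interval 0.54 to 0.90, adjusted p = 5.2e-06), a 1.65-fold higher level. So both closely related pairs, *Tbx2* with *Tbx3* and *Tbx15* with *Tbx18*, held a gene that rose and a gene that fell.

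*Tbx6* (ENSMUSG00000030699, plus strand, mm9 chr7:133924997-133929074), which directs presomitic mesoderm, had 48 and 36 reads in KO, against 25 and 36 in WT. The CPM of 1.01 and 0.873 in KO and 0.558 and 0.879 in WT overlapped. Its difference of 0.40 on the log2 scale (standard error 0.31, 95% interval -0.27 to 1.08) had an adjusted p of 0.274, so that a change within that interval could not be told from none at this depth. *Tbx5* (ENSMUSG00000018263, plus strand, mm9 chr5:120284672-120335227), the forelimb and heart factor of Holt-Oram syndrome, had 2 and 6 reads in KO, against 1 and 3 in WT. The ratio of its scaled sums was 1.93, with an exact 95% interval of 0.518 to 8.77. *Eomes* (ENSMUSG00000032446, plus strand, mm9 chr9:118387330-118395250) had 0 and 4 reads in KO, against 0 and 2 in WT, with a ratio of 1.93 and an interval of 0.277 to 21.4. No difference was detectable at this depth for *Tbx5* and *Eomes*, which were near the detection limit in both genotypes.

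Levels of different genes were compared as CPM per kilobase of annotated exon. In KO cells the means ran from *Tbx15* at 53.3 through *Tbx18* at 5.62, *Tbx20* at 4.14, *Tbx2* at 1.27, *Tbx3* at 0.828, *Tbx6* at 0.522 and *Tbx1* at 0.295 down to *Tbx5* at 0.0238 and *Eomes* at 0.0117. In WT cells they ran from *Tbx15* at 84.1 through *Tbx18* at 3.41, *Tbx1* at 3.21, *Tbx3* at 1.43, *Tbx2* at 0.486, *Tbx6* at 0.398 and *Tbx20* at 0.0251 down to *Tbx5* at 0.0121 and *Eomes* at 0.00588. *Tbx20* thus stood directly below *Tbx18* in KO and below *Tbx6* in WT, *Tbx1* did the reverse, and *Tbx2* and *Tbx3* changed places. Neighbours in this order whose 2 libraries overlapped were *Tbx5* and *Eomes* in KO, and *Tbx2* and *Tbx6*, *Tbx20* and *Tbx5*, and *Tbx5* and *Eomes* in WT. *Tbx15* made up 80.5% and 81.0% of the summed level of the 9 genes in KO, against 90.0% and 90.6% in WT. Without *Tbx15* the summed level per kilobase was 12.8 and 12.6 in KO, against 8.70 and 9.25 in WT. *Tbx20* alone took 6.35% and 6.20% of the sum of all 9 in KO, against 0.0512% and 0.00549% in WT, while *Tbx1* took 0.530% and 0.364% in KO, against 3.60% and 3.31% in WT.

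**Figure D3:**
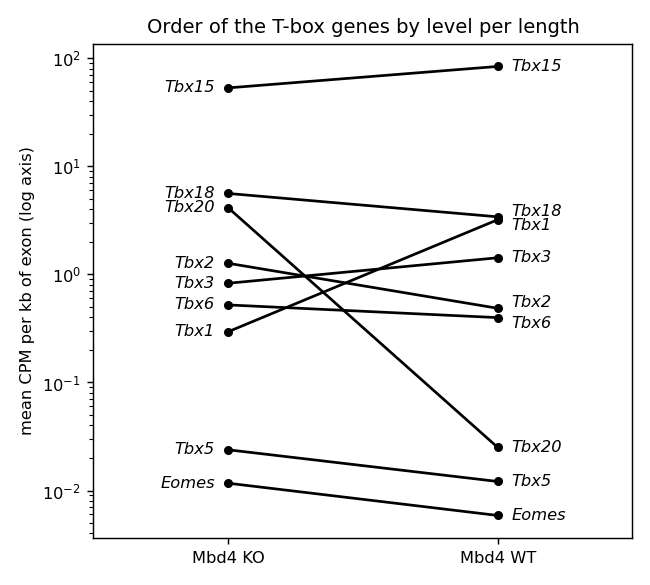
Mean level of each T-box gene in CPM per kilobase of exon (log axis), KO at the left and WT at the right, with a line joining the same gene (2 libraries each). *Tbx15* is at the top in both genotypes, at 53.3 and 84.1, while the lines of *Tbx20* and *Tbx1* cross.

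The rest of the family was at low levels, apart from *Mga*. *Mga*, a large protein with both a T-box and a MAX-partner domain that takes part in gene silencing, had CPM of 235 and 225 in KO and 245 and 258 in WT. Its log2 fold change was -0.13 (standard error 0.06, 95% interval -0.259 to -0.0021, adjusted p = 0.0679), and it was called at adjusted p = 0.0401 with RLE size factors, 0.0402 with DESeq2 and 0.0200 without WT replicate 1, at log2 fold changes of -0.15, -0.15 and -0.17. *Tbr1*, a factor of cortical neurons, had 13 and 15 reads in KO, against 11 and 13 in WT, with an adjusted p of 0.755. The Brachyury gene *T*, a mesoderm and notochord factor, had 2 and 0 reads in KO and 0 and 0 in WT. *Tbx21*, the T-bet gene of T helper cells, and *Tbx22*, a palate gene, each had 1 and 0 reads in KO and 0 and 0 in WT. *Tbx10* and *Tbx19* were not analysed here. So of the 2 other family members tested, 0 passed edgeR's adjusted p of 0.05 and 1, *Mga*, had an unadjusted p under 0.05.

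*Mbd4* had 373 and 302 reads in KO, against 663 and 630 in WT (log2 fold change -0.99, adjusted p = 2.8e-06), where the sources used here do not place the deletion and reads from outside it would still count. *Ift122*, the neighbouring gene of cilia transport, had 7 and 3 reads in KO, against 1002 and 944 in WT (log2 fold change -7.62). Differences that come with the loss of MBD4 and with the loss of *Ift122* RNA cannot be told apart in this comparison. Most fibroblast markers did not stay level: of 12 tested, 0 were higher, 9 lower and 3 not called, 2 being higher with library totals. They summed to 13100 to 14230 CPM in KO and 22090 to 24570 in WT. The matrix gene *Dcn* had 5 and 7 reads in KO, against 1349 and 1123 in WT. In contrast, the 3 not called, *Pdgfra*, *Pdgfrb* and *Thy1*, had log2 fold changes of -0.06, 0.09 and 0.06. Cardiomyocyte markers summed to 9.12 to 9.40 CPM in KO and 5.22 to 6.34 in WT, with 3 of 5 tested higher and 1 lower. *Tnni3*, *Actn2* and *Ryr2* rose by log2 fold changes of 2.09, 1.57 and 1.26, while *Tnnt2* fell by 3.28. *Myh6*, too low to be tested, had at most 1 read in any library. Markers of epicardium and mesothelium summed to 1.14 to 1.33 CPM in KO and 29.0 to 29.2 in WT, where *Krt19* alone had 27.4 and 27.2, with *Wt1* at 7 and 3 reads in KO and 0 and 0 in WT. Cartilage markers summed to 140 to 158 CPM in KO and 439 to 478 in WT, with 1 of 6 higher and 5 lower. The other marker lists summed to 6.82 to 7.06 CPM in KO and 4.91 to 6.01 in WT for endothelium, 5.91 to 6.16 and 3.25 to 4.15 for macrophages, 3.06 to 3.43 and 0.782 to 1.15 for epithelium, 97.2 to 97.7 and 182 to 194 for neural genes, 1.75 to 1.79 and 1.56 for pluripotent cells, 0.358 to 0.388 and 0.342 to 0.469 for skeletal muscle, and 0.170 to 0.400 and 0.220 to 0.380 for T and NK cells. Such sums can rest on a single gene or hide opposite changes. Among 3 macrophage markers tested, *Csf1r* rose by 1.74 on the log2 scale, while *Ptprc* had 0 and 2 reads in KO, against 40 and 21 in WT. Among 2 epithelial markers tested, *Cdh1* rose by 3.64 and *Epcam* was not called. The untested *Krt8* and *Krt14* had fewer reads in KO than in WT, and *Krt5* more. The part of the cell mixture in the T-box values was not tested.

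Genes that work around the T-box factors were read from 7 lists taken from textbook roles, and their counts stand beside 34.3% higher and 32.5% lower among all tested genes, so that calls in both directions are not particular to them. Of limb bud genes, 6 were higher, 4 lower and 3 not called among 13 tested, with a median log2 fold change of 0.37. *Msx1*, a homeobox gene of limb mesenchyme, rose, with 16.0 and 16.2 CPM in KO and 0.871 and 0.708 in WT (log2 fold change 4.34), and *Msx2* at 3.71 and *Lhx2* at 3.42 rose with it. *Grem1*, the secreted BMP antagonist of the limb bud, fell to 6.88 and 5.70 CPM in KO, against 77.7 and 77.9 in WT (log2 fold change -3.62). *Lhx9* at -2.30 and *Fgf10* at -1.17 also fell, the last being a growth factor that *Tbx5* is known to activate in the forelimb. *Prrx1*, the most abundant gene of the list and a marker of limb mesenchyme, had 531 and 515 CPM in KO and 124 and 153 in WT (log2 fold change 1.92).

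The heart list had 3 genes higher and 4 lower among 7 tested, with a median of -0.41. *Gata4* had 0 and 0 reads in KO, against 1 and 0 in WT, and *Nkx2-5*, its partner in heart muscle together with *Tbx5* and *Tbx20*, had 0 and 0 in KO, against 2 and 0 in WT. *Tbx20* stood at 18.6 CPM on average in KO cells, while *Gata4* and *Nkx2-5* were near 0 in both genotypes. Not all genes of the list were low, with mean CPM in KO of 53.7 for *Mef2c*, 57.9 for *Smarcd3* and 11.4 for *Gata6*. *Mef2c* rose by a log2 fold change of 1.20 and *Smarcd3*, the chromatin subunit that works with cardiac T-box factors, by 0.99. *Gja1*, the gap junction gene that *Tbx2* is known to repress, fell to 63.3 and 64.2 CPM in KO, against 302 and 271 in WT (log2 fold change -2.17). *Gja5*, a gap junction gene that *Tbx5* is known to activate, was at -0.78 (adjusted p = 0.00506, and 0.0899 without KO replicate 2), and *Gata6* at -0.41 (adjusted p = 0.00307, and 0.0559 without KO replicate 1).

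Pharyngeal and retinoid genes known to act with *Tbx1* gave 5 higher, 4 lower and 3 not called among 12 tested, with a median of 0.04. *Foxc1*, the most abundant of the list, rose by 0.93 on the log2 scale, and *Foxa2* was at 0.71 (adjusted p = 0.0182, 0.179 without KO replicate 2 and 0.114 with DESeq2). *Flt4*, the lymphatic growth factor receptor that *Tbx1* is known to activate, fell by 2.91 on the log2 scale, with 0.673 and 0.655 CPM in KO and 4.60 and 5.42 in WT. *Wnt5a*, a signalling gene that *Tbx1* activates in the mouse second heart field, fell by 1.30, and *Fgf10*, also a *Tbx1* target there, by 1.17. *Flt4*, *Wnt5a* and *Fgf10* are among the 4 genes that were lower, while 5 of the same list were higher. The part of *Tbx1* in these values was not tested.

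Among somite genes around *Tbx6* and *Tbx18*, 2 were higher, 3 lower and 1 not called of 6 tested, with a median of 0.21. *Ripply1*, a small co-repressor that binds T-box proteins and ends the action of *Tbx6* in the presomitic mesoderm, rose, with 386 and 334 reads in KO, against 3 and 3 in WT (log2 fold change 6.80, standard error 0.28, adjusted p = 1.4e-10). Like *Tbx20*, it passed the filter on low counts through its KO libraries alone, and is not tested when 10 counts are required in every library. *Dll1*, the Notch ligand that *Tbx6* activates, rose by 1.998 on the log2 scale. *Pax9* fell by 1.37 and *Lfng*, the modifier of Notch, by 0.63. *Mesp2*, the segmentation gene downstream of *Tbx6*, had 2 and 1 reads in KO, against 9 and 4 in WT, and was not tested.

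Co-repressors and chromatin partners of T-box factors gave 7 higher, 6 lower and 5 not called among 18 tested, with a median of 0.10, *Ripply1* being counted here too. With library totals these were 9 higher and 4 lower. *Tle2* rose by 1.87 and *Tle4* by 1.25 on the log2 scale, both being Groucho co-repressors, while their relative *Tle1* fell by 0.39. *Chd7* fell by 1.25 and *Eed*, a Polycomb subunit, by 0.69. *Chd4*, the helicase of the NuRD complex and the most abundant of the list, fell by 0.39.

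Of 8 growth genes that *Tbx2* or *Tbx3* is known to repress, 5 were higher, 1 lower and 2 not called, with a median of 0.55, so that 6 of 8 were called, where 66.8% of all tested genes were. *Cdkn1a*, which encodes the cell cycle inhibitor p21, rose to 10.1 and 10.5 CPM in KO, against 1.79 and 1.10 in WT (log2 fold change 2.83). *Cdh1*, the E-cadherin gene, had 142 and 107 reads in KO, against 10 and 9 in WT (log2 fold change 3.64), and *Ndrg1*, a stress-induced growth suppressor, rose by 1.13. *Gja1* was the member that fell.

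Brown and beige fat genes, where *Tbx15* and *Tbx1* mark depots and precursors, gave 4 higher, 3 lower and 1 not called among 8 tested, with a median of 0.47. *Cited1*, a marker of beige fat, rose by 5.14 on the log2 scale, with 10.8 and 11.6 CPM in KO and 0.290 and 0.342 in WT. *Ebf2*, a factor of brown fat precursors, rose by 4.60 (5.29 without WT replicate 1) and *Cebpa*, a fat cell factor, by 2.73. *Pparg*, the master regulator of fat cells, fell by 1.57, with 0.800 and 0.267 CPM in KO and 1.65 and 1.61 in WT, and by 2.60 without KO replicate 1. *Fabp4*, its target in fat cells, fell by 0.85. Among the listed genes named here, *Lhx2*, *Prrx1*, *Fgf10*, *Dll1*, *Ebf2*, *Pax9*, *Wnt5a*, *Smarcd3*, *Gja5*, *Gata6*, *Tle1*, *Tle2*, *Chd4* and *Ndrg1* overlap another annotated gene, so their reads may be shared with it. The named markers *Tnni3* and *Csf1r* also overlap another gene.

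**Figure D4:**
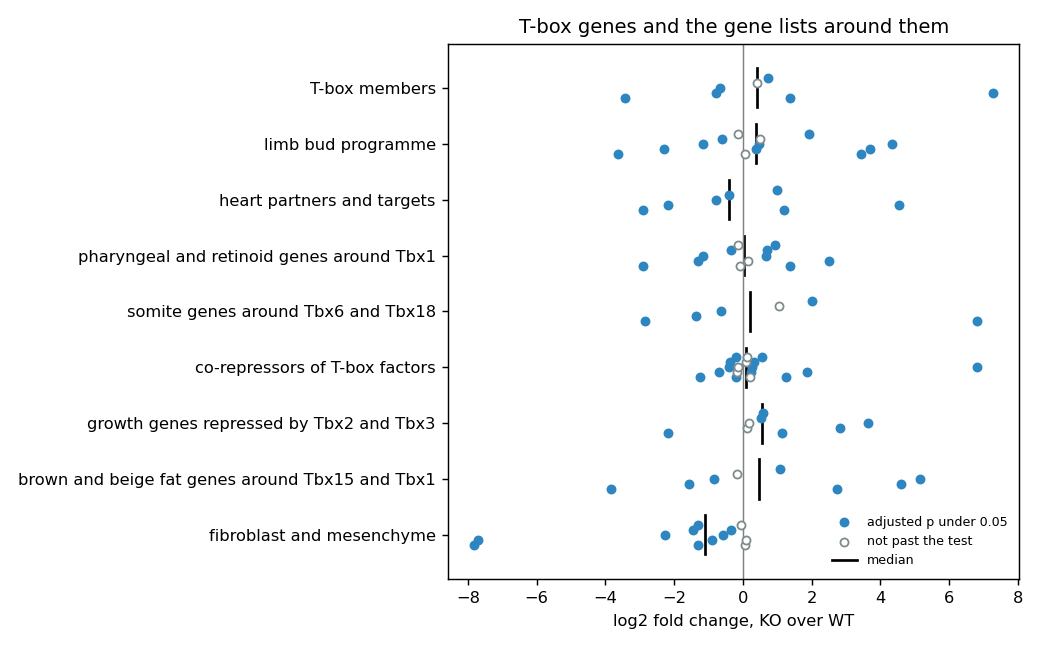
Log2 fold change, KO over WT, of every tested gene in the T-box family list, in 7 lists of genes around it and in the fibroblast markers; blue points have an adjusted p under 0.05, open points do not, and the black line is the list's median. The 7 lists have genes on both sides of 0 with medians from -0.41 to 0.55, while 9 of the 12 fibroblast markers are lower.

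**Figure D5:**
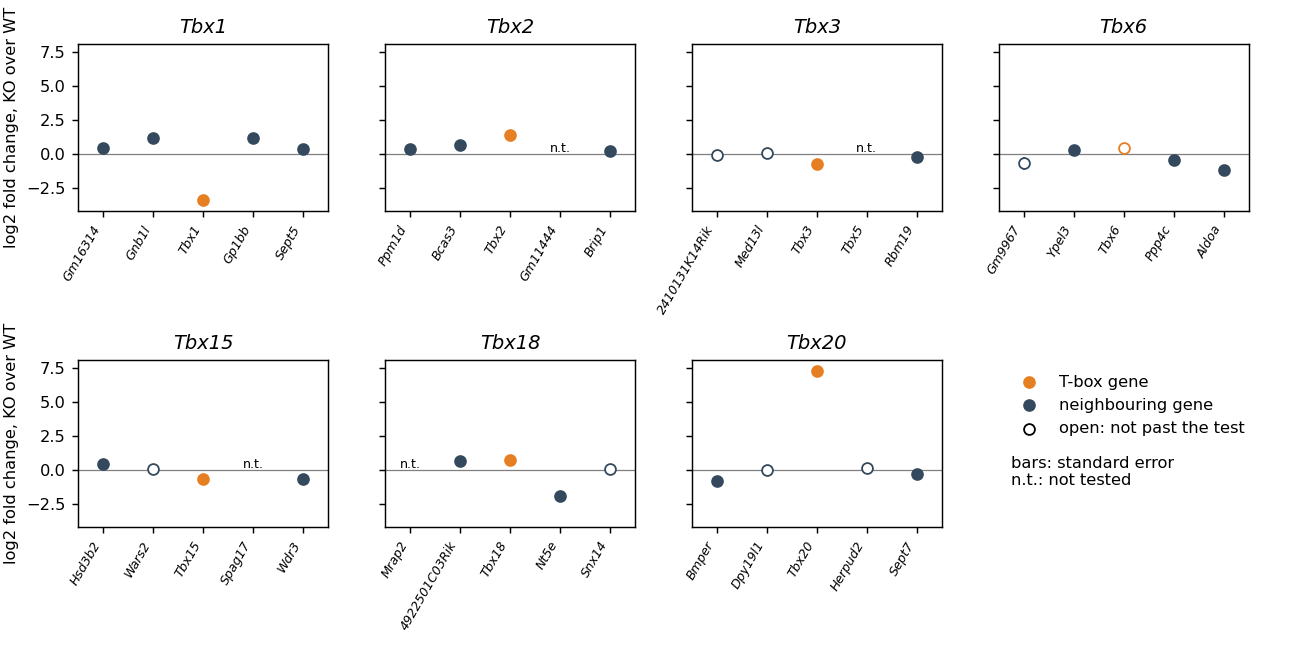
Log2 fold change, KO over WT, of 7 tested T-box genes (orange) and the genes on either side (dark grey). The latter are the nearest protein-coding genes that have a row in the count data. Standard errors are mostly smaller than the points, and open points did not pass an adjusted p of 0.05. *Tbx1* is low between 4 genes that are higher, and *Tbx20* at 7.28 lies between genes from -0.81 to 0.10.

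The genes beside each T-box gene on the chromosome were read to see whether it moved with its surroundings. Only protein-coding genes with a row in the count data were taken, so a closer gene without one was passed over. Over all 10 loci there were 33 different neighbours, 29 of them tested, with 11 higher, 8 lower, 10 not called and a median log2 fold change of 0.07. The 65.5% called among them is close to the 66.8% of all tested genes. Both genes nearest to *Tbx20* were not called: *Dpy19l1*, 220.1 kb away, was at -0.02 and *Herpud2*, 333.8 kb away, at 0.10. *Sept7* and *Bmper*, further out, fell by 0.30 and 0.81, *Sept7* not being called with library totals (-0.15, adjusted p = 0.0568). *Tbx1* fell while all 4 of its neighbours were higher: *Gnb1l*, 15.0 kb away, by 1.15, *Gp1bb*, a platelet receptor gene 32.3 kb away, by 1.18, *Sept5* by 0.33 and *Gm16314* by 0.46. The last of these had its call lost without WT replicate 2, KO replicate 1 or KO replicate 2 (adjusted p of 0.188, 0.144 and 0.163), and *Sept5* without KO replicate 2 (0.0869). *Gp1bb* and *Sept5* overlap, as do *Gnb1l* and *Gm16314*, so these are not 4 separate readings.

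*Tbx2* rose together with *Bcas3*, 6.5 kb away, at 0.66 and *Ppm1d*, a p53-regulated phosphatase gene, at 0.36, both past the test. *Brip1*, a DNA repair helicase gene, lies 216.2 kb away on its other side, beyond *Tbx4* and the untested *Gm11444*. It was at 0.19 (adjusted p = 0.0346). *Brip1* was not called without KO replicate 1, KO replicate 2 or WT replicate 1, at log2 fold changes of 0.15, 0.23 and 0.13. *Tbx3* and *Tbx5* lie 149.9 kb apart; *Med13l*, the nearest tested gene on the other side of *Tbx3*, was at 0.02 and not called. *Wars2*, 1.2 kb from *Tbx15*, was at 0.07 and not called. *Ppp4c*, 0.3 kb from the end of *Tbx6*, fell by 0.47 and *Aldoa*, a glycolysis gene at 9.7 kb, by 1.22. *Nt5e*, the CD73 gene 596.4 kb from *Tbx18*, fell by 1.95, and *Itga9*, an integrin gene 120.6 kb from *Eomes*, rose by 1.27. The remaining neighbours past the test were *Rbm19* at -0.22, *Ints2* at -0.44, *Ypel3* at 0.27, *Hsd3b2* at 0.41, *Wdr3* at -0.72 and *4922501C03Rik* at 0.62, of which *Rbm19*, *Ypel3* and *Hsd3b2* each lost the call in 3 of the 4 analyses without a library, at adjusted p from 0.062 to 0.374. With DESeq2, *Brip1*, *Ypel3*, *Hsd3b2* and *Gm16314* were not called either, at adjusted p from 0.0978 to 0.163, and *Rbm19* was not called with upper quartile scaling (0.111) or library totals (0.463).

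For each T-box gene that differed by a log2 fold change of at least 1, the gene with the most similar profile over the 4 libraries was looked up among 115 listed genes, by the largest difference in centred log2 CPM. The closest to *Tbx1* was *Grem1* (0.28), that to *Tbx2* was *Tle4* (0.13), and that to *Tbx20* was *Ripply1* (1.16). The distance to *Ripply1* is large because *Tbx20* had 9 and 1 reads in WT while *Ripply1* had 3 and 3. With 4 libraries of 2 genotypes, such likeness mainly repeats the difference between genotypes.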

How the data were processed

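The authors sequenced ribosome-depleted, stranded total RNA of 2 KO and 2 WT samples, aligned it to mm9 with TopHat2 and Bowtie and, per the submitters' notes, counted it with HTSeq 0.5.4p3. The deposited raw counts were used. How the counting treated the strand is not stated. The table also holds normalized values and the authors' own fold changes and p-values, which were not used. Genes were placed with GENCODE annotation of mm9, which holds 23393 of 23537 identifiers; no row was left out of the library totals.

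Libraries held 39108275 to 47567835 counts, and the 3 counts taken as a floor are worth 0.0631 to 0.0732 CPM. In R 4.3.3, edgeR 4.0.16 removed 7999 genes with low counts, scaled by TMM and fitted the quasi-likelihood test on genotype alone, with Benjamini-Hochberg adjustment over the 15538 genes tested and a call at adjusted p under 0.05. Replicates differed by more than sampling noise (chi-square per gene 6.08 for KO, 12.7 for WT). CPM per kilobase used the union of annotated exons. In data simulated from this comparison (15260 genes), 200 genes were picked for a set change, and every gene was given the same spread. There 94 of 100 genes with a set log2 change of 1 and 96 of 97 with 2 were recovered, with 8 false calls. In the real comparison 66.8% of tested genes were called, so the simulation checks the code and does not give the error rate of these calls. Alternatives were other scalings and filters, DESeq2 1.42.0, limma-voom (limma 3.58.1), a replicate block, leaving out each library, an adjusted p of 0.01 and a longer motif. Python 3.11.15, scipy 1.17.1 and matplotlib 3.10.9 were used for the rest.

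The T-box genes and the lists were chosen with earlier results of these data known. Named are all T-box genes, up to 3 genes in each direction per list with the largest change and a mean of at least 1 CPM, the most abundant gene of each list, called neighbours and the nearest profiles. *Gata4*, *Nkx2-5*, *Mesp2*, *Wt1*, *Myh6* and the uncalled neighbours were named for their place in the list or on the chromosome, after their values were seen. The markers *Ryr2*, *Pdgfra*, *Pdgfrb*, *Thy1*, *Ptprc*, *Epcam*, *Krt5*, *Krt8* and *Krt14* were also named after their values were seen. None of these genes is among the single genes counted in the closing section. A few genes that meet this rule are not reported here.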

Additional observations from a re-analysis of the deposited data

How the results depend on the processing

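Over 13 alternatives for the count at an adjusted p of 0.05 or 0.01, 5 to 6 T-box genes were called, 2 to 3 higher and 3 lower; the count of 5 came with at least 10 counts in every library, where *Tbx20* is no longer tested. There the count past the limits of the study was 1 instead of 2. The other family members gave 0 calls in the analysis reported, and 1 call, *Mga*, with RLE size factors, 1 with DESeq2 and 1 without WT replicate 1. The called list genes numbered 54 in the analysis reported and 47 to 56 over 12 alternatives, and the called neighbours 19 and 13 to 23. With 10 counts in every library, 1 instead of 2 somite genes was higher, and 3 instead of 5 pharyngeal genes were higher with DESeq2, or without KO replicate 2. Leaving out each library in turn gave 6 calls among the T-box genes each time and 0 to 1 among the other family members. The replicate numbers are shared names only: the deviations of same-numbered libraries correlated at -0.066 over 12742 genes, and with the number as a block 6 T-box genes were called. Scaling by library totals put the median over all genes at a log2 fold change of 0.173, against 0.024 with TMM. Of 84 single genes named, 958 alternatives kept the side of the threshold, 6 passed it newly and 35 no longer passed; the cause was not tested. The sign of the fold change turned in 6 alternatives of 4 genes that were called in neither analysis (*Mga*, *Tbr1*, *Nanog* and *Cd3d*), and in 0 of a called gene. Depth limits *Tbx5* and *Eomes*, with sums of at most 8 reads in a genotype.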
